A study of Rattus norvegicus with 4 samples.

Results

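Cell division genes were followed across the cell classes of rat skin wounds. The set holds 40 genes whose products copy DNA or carry out mitosis. Members were taken as the rows of the gene tables that carried a listed symbol, and 38 of the 40 were found among the 23999 genes. Ccnb2 and E2f1 were not analysed here. Of the 38, 15 act in S phase, when DNA is copied, and 23 act in mitosis and cytokinesis. No measured value entered the choice rule, but members were chosen with earlier results of these data known. The cells were classed with other marker genes. The tissue was wounded rat skin taken on day 4, dissociated and measured by droplet single-cell RNA sequencing, which counts captured RNA molecules by their unique molecular identifiers (UMIs). Purified migrasomes, the vesicles that migrating cells leave on their retraction fibres, had been injected into the wounds of the injected group (2 libraries). The uninjected group (2 libraries) is labelled as migrasomes uninjected, which does not say whether its wounds received an injection without migrasomes. An effect of the injection itself and one of its migrasome content therefore cannot be told apart. The labels do not say whether the 2 libraries of a group came from separate animals, nor the strain or age, so p-values measure the spread between libraries, which may be technical.

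As background, a resting cell keeps most of these genes silent. At the start of S phase the E2F transcription factors switch on the replication genes: the Mcm2 to Mcm7 subunits of the helicase that unwinds DNA, Pcna, the clamp that holds polymerases on DNA, and the enzymes Rrm1, Rrm2, Tyms and Tk1, which supply deoxynucleotides. The mitotic genes, which the DREAM complex holds silent in resting cells, are switched on later through the MuvB complex. Among them are Cdk1 and its cyclins Ccna2 and Ccnb1, the kinases Plk1, Aurka and Aurkb, and the spindle and cytokinesis proteins. In a skin wound, basal keratinocytes and fibroblasts divide to close the defect and build granulation tissue, whereas mature neutrophils do not divide.

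Library totals ran between 75823418 and 105605297 UMIs. Filtering left 6076 to 9850 cells a library, with medians of 3462.5 and 7879.5 UMIs a cell in injected libraries, against 1997 and 4953.5 in uninjected libraries. Each cell was assigned to a class by gating on lists of marker genes that hold none of the 38 members. The gates held 12815 keratinocytes, 9180 neutrophils, 2426 fibroblasts, 1488 macrophages, 929 T and NK cells and 781 dendritic cells, and 5344 cells met no gate. The median gated fibroblast drew 4.62% of its UMIs from the 12 measured fibroblast markers, and the median gated T and NK cell drew 0.405% from its own 15 markers. Uninjected library 1 stood apart: it had the lowest median depth, 60 macrophages and 84 T and NK cells, so results are also given without it. Pairs of libraries shared 15 to 36 cell barcodes.

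Replication and mitotic genes are known to carry different promoter motifs, so the 250 bases before the start of each gene were read from the RefSeq table of the GRCr8 build. Of the 38 members, 32 matched by symbol, with 34 promoters, since Uhrf1 has 3. Each promoter was searched on both strands for 3 motifs, whose matches can overlap. The E2F site was taken as TTTCCCGC, TTTGGCGC, TTTCGCGC or TTTGCCGC, the cell cycle homology region (CHR) of mitotic genes as TTTGAA or TTCGAA, and the CCAAT box as CCAAT. An E2F match stood in 6 of 14 S-phase promoters (42.9%) and in 1 of 20 mitotic promoters (5.00%), beside 1.73% of all 33469 promoters. A CHR match stood in 10 of 20 mitotic promoters and in 3 of 14 S-phase promoters (21.4%), beside 17.4% of all promoters. The CCAAT box was in 15 of 20 mitotic and in 10 of 14 S-phase promoters (71.4%), beside 34.0% of all. CHR and CCAAT stood together in 40.0% of mitotic promoters, in 14.3% of S-phase promoters and in 6.31% of all promoters. A match describes the letters and is not a shown binding site.

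Promoters of 5 members that the results turn on are given 5′ to 3′ on the strand of the gene, each ending at the base before the gene start, with matches to the 3 motifs in capitals. Mcm6, of the replicative helicase, differed in its change between T and NK cells and fibroblasts, as did Cdk1, the kinase that drives entry into mitosis, and Top2a, the topoisomerase that untangles chromosomes. Pcna and Ckap2l, which encodes a mitotic spindle protein, departed from the other members in neutrophils. The stretches lie at chr13:42404353-42404602 (minus strand) for Mcm6, chr20:19265043-19265292 (plus strand) for Cdk1, chr10:84473094-84473343 (minus strand) for Top2a, chr3:139955821-139956070 (minus strand) for Pcna and chr3:136977504-136977753 (minus strand) for Ckap2l.
Mcm6: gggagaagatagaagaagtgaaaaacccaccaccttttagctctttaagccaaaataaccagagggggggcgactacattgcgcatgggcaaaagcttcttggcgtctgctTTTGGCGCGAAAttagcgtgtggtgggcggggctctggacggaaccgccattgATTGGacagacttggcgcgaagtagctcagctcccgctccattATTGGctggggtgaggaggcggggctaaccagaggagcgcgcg
Cdk1: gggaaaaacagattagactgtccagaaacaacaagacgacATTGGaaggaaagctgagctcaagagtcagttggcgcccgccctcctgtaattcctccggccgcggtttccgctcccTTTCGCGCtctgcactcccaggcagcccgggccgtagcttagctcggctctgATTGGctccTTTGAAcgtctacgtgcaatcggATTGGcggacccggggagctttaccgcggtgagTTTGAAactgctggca
Top2a: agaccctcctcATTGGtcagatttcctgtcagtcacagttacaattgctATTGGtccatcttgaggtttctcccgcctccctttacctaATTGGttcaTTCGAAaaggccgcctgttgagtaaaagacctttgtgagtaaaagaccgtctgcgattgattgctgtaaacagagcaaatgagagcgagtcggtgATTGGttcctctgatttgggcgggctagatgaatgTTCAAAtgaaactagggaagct
Pcna: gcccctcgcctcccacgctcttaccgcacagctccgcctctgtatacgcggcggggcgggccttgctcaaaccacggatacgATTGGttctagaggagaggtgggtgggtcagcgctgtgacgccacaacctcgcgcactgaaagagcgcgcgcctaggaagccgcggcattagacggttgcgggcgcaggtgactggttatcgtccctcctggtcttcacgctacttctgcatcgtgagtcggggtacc
Ckap2l: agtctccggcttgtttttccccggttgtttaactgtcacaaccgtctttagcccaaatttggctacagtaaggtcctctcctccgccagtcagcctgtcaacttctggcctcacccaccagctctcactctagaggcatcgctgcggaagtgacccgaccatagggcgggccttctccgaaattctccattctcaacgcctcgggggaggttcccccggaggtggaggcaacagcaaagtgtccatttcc
Mcm6 holds 2 overlapping E2F matches and 2 CCAAT boxes. Cdk1 holds 1 E2F match, 2 CHR matches and 3 CCAAT boxes, and Top2a holds 2 CHR matches and 4 CCAAT boxes. The Pcna window holds 1 CCAAT box, and none of these letters occur in the Ckap2l window.

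Among the classes with at least 50 cells in every library, Pcna and Ckap2l aside, fibroblasts gave cell division genes the most of their RNA. T and NK cells and keratinocytes followed, and macrophages, dendritic cells and neutrophils were lowest. Summed over the mitotic members, fibroblasts held 7.47 ± 1.98 UMIs per 10000 (SD, n = 4 libraries), T and NK cells 4.67 ± 2.06, keratinocytes 4.65 ± 0.203, macrophages 1.20 ± 0.179, dendritic cells 1.09 ± 0.373 and neutrophils 0.603 ± 0.239. The sums for the S-phase members were 4.33 ± 0.978 in fibroblasts, 3.87 ± 1.10 in T and NK cells, 2.57 ± 0.282 in keratinocytes, 1.24 ± 0.260 in macrophages, 1.04 ± 0.246 in dendritic cells and 0.848 ± 0.234 in neutrophils. These sums leave out Pcna and Ckap2l, which were high in neutrophils, a choice made after seeing the data. With both counted, the S-phase sum of neutrophils was 10.2 and 9.84 UMIs per 10000 in injected libraries, against 12.6 and 17.6 in uninjected libraries. Fibroblasts then had 6.22 and 5.68 in injected libraries, against 5.79 and 8.17 in uninjected libraries, below neutrophils in each library. The mitotic sums of neutrophils then became 5.97 and 7.10 in injected libraries, against 6.68 and 3.52 in uninjected libraries, overlapping those of fibroblasts. Across libraries the mitotic sums of T and NK cells overlapped those of fibroblasts and keratinocytes, and those of dendritic cells overlapped those of macrophages and neutrophils. The fibroblast sums all lay above the keratinocyte sums. Some smaller gates held as much or more and others less. The 106 cells of the skeletal muscle gate held 18.0 ± 6.17 mitotic UMIs per 10000, the 132 mural cells 9.94 ± 3.40 and the 273 endothelial cells 7.29 ± 2.76, but some of their libraries held as few as 7 cells. The 179 mast cells held 4.39 ± 2.91 and the 58 Schwann cells and melanocytes 2.36 ± 0.910.

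Droplets without a cell held 5.16 ± 0.788 mitotic and 2.95 ± 0.572 S-phase UMIs per 10000, so free RNA of these genes was present. The mitotic value was close to the sums of T and NK cells and keratinocytes and far above that of neutrophils, which should lack these genes. How much free RNA each class holds was not measured, and its part in the sums was not tested. To compare cells of unequal depth, each cell was thinned to 1000 UMIs and counted when it kept at least 2 UMIs of the mitotic members other than Ckap2l. That share was 11.0% and 9.79% of fibroblasts in injected libraries, against 13.1% and 20.2% in uninjected libraries. Among T and NK cells it was 9.47% and 5.81% in injected libraries, against 4.88% and 5.05% in uninjected libraries. Keratinocytes gave 6.24% and 7.41% in injected libraries, against 6.15% and 7.48% in uninjected libraries. In neutrophils the share stayed at 0.206% and 0.256% in injected libraries, against 0.419% and 0.239% in uninjected libraries, at median depths of 1086 to 1460 UMIs before thinning, against 15664 to 26553 UMIs in fibroblasts. Thinning left out 1796 of 9180 neutrophils, 444 of 12815 keratinocytes, 64 of 2426 fibroblasts and 15 of 929 T and NK cells as too shallow. By this measure, with Ckap2l left out after seeing the data, every fibroblast, keratinocyte and T and NK library lay above the neutrophil level. With Ckap2l counted this order did not hold, as the shares over all members given further below show. Fewer dividing cells and less of this RNA per dividing cell cannot be told apart in the sums.

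**Figure D1:**
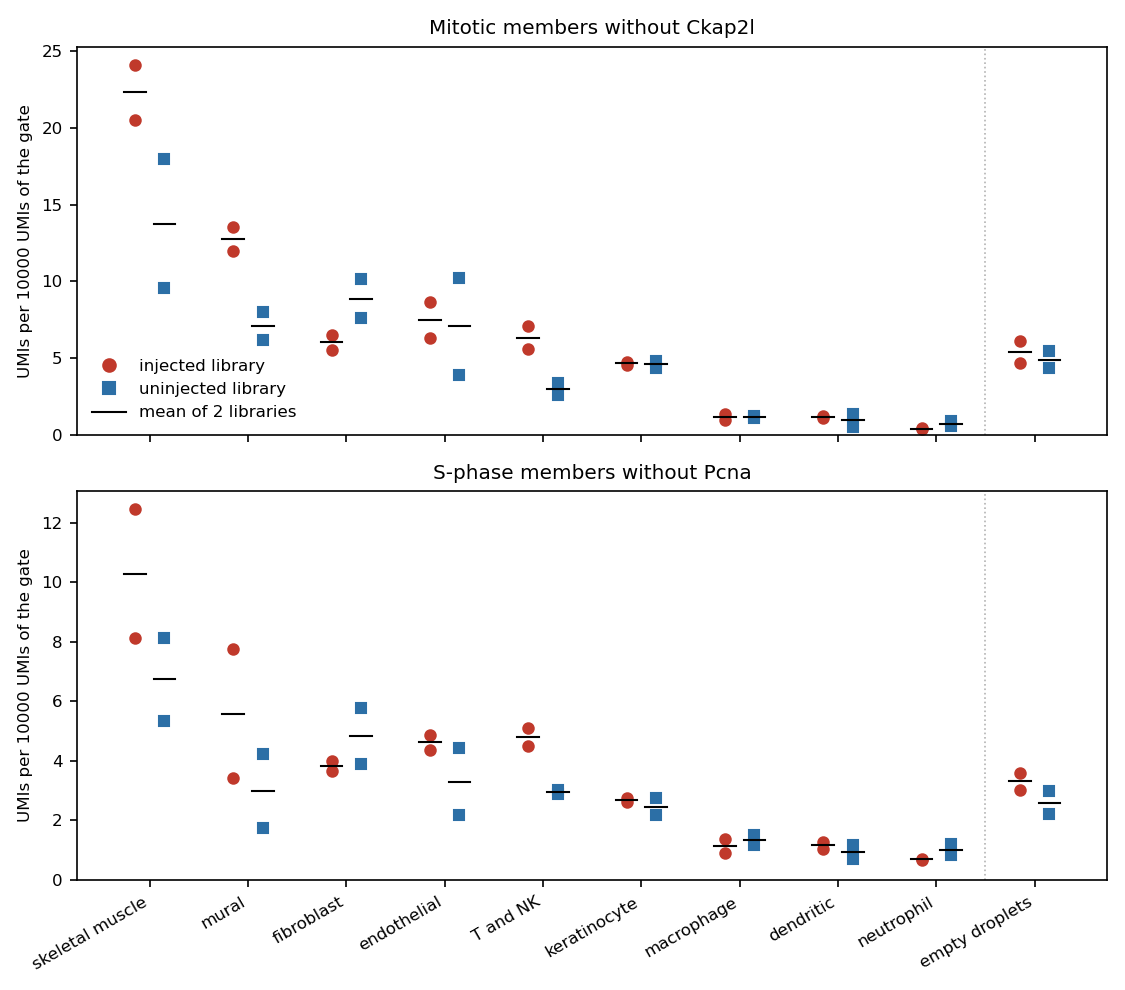
Summed UMIs of the S-phase and of the mitotic members per 10000 UMIs, for each gated class and library, without Pcna and Ckap2l. The mitotic sum of T and NK cells was 7.08 and 5.62 in injected libraries, above 3.38 and 2.60 in uninjected libraries, and that of fibroblasts was 6.55 and 5.55 in injected libraries, below 7.61 and 10.2 in uninjected libraries.

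Set against neutrophils within the same libraries, most members were higher in keratinocytes and fibroblasts. In keratinocytes 27 of 38 members passed the edgeR quasi-likelihood test as higher and 5 as lower at an adjusted p under 0.05, where 38.6% of all genes tested were higher and 29.0% lower. Fibroblasts had 29 of 38 higher and 4 lower, beside 39.7% and 31.7% of all genes. T and NK cells had 12 of the 35 tested members higher and 5 lower, beside 32.9% and 33.7% of all genes, so these shares lay near or below the background. Without injected library 1 the T and NK count was 7 higher, and without uninjected library 2 it was 3 lower. Macrophages had 0 of 27 tested members higher and 6 lower (all genes 30.5% and 29.0%), and 0 higher with DESeq2 size factors. Dendritic cells had 1 of 21 higher, Mcm7, and 9 lower (all genes 30.3% and 32.5%). The dendritic count lower was 4 without uninjected library 2, and neither Mcm7 nor any other member was higher without injected library 1 or without uninjected library 2. The median of all genes was 0.46 (log2) for keratinocytes over neutrophils with TMM scaling and 0.32 with DESeq2 size factors, so folds between classes are relative to that shift. Examples that passed in both classes are Top2a (fibroblast over neutrophil log2 2.62, SE 0.28, adjusted p = 4.25e-09; keratinocyte over neutrophil log2 1.65, SE 0.29, adjusted p = 4.36e-06) and the kinetochore gene Cenpf (log2 3.82, SE 0.42, adjusted p = 9.61e-09 and log2 2.90, SE 0.45, adjusted p = 4.77e-07). Mcm6 gave log2 2.90, SE 0.32, adjusted p = 1.12e-08 in fibroblasts and log2 2.29, SE 0.35, adjusted p = 3.39e-06 in T and NK cells.

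Neutrophils were an exception for Pcna, Ckap2l and Mcm5, which were lower than in neutrophils in all 5 classes set against them. Levels are given as UMIs per 1000000 UMIs of the class and library (UPM). In neutrophils Pcna stood at 951 and 913 UPM in injected libraries, against 1137 and 1680.4 UPM in uninjected libraries. In fibroblasts it stood at 225 and 203 UPM in injected libraries, against 189 and 239 UPM in uninjected libraries. Neutrophils thus carried several times the Pcna of the class with the highest sums of the other members, in every library. In neutrophils Ckap2l stood at 552 and 667 UPM in injected libraries, against 574 and 293 UPM in uninjected libraries. In macrophages it stood at 435 and 288 UPM in injected libraries, against 123 and 152 UPM in uninjected libraries. The neutrophil and macrophage values were far above those of fibroblasts, where it was 14.1 and 8.56 UPM in injected libraries, against 6.03 and 4.52 UPM in uninjected libraries. Mcm5 in neutrophils was 24.9 and 18.8 UPM in injected libraries, against 65.7 and 41.3 UPM in uninjected libraries. Most other mitotic members were higher in keratinocytes and fibroblasts than in neutrophils, but Aurka, the kinase of spindle poles, passed as lower in keratinocytes, fibroblasts and T and NK cells. Top2a, Mki67, Birc5 and Nusap1 passed as lower in dendritic cells than in neutrophils. Mki67, the standard marker of proliferation, was in neutrophils at 1.21 and 3.13 UPM in injected libraries, against 8.96 and 4.59 UPM in uninjected libraries. With all members counted, 26.2% and 24.9% of thinned neutrophils in injected libraries, against 31.7% and 44.5% in uninjected libraries, reached 2 UMIs of the S-phase members. Without Pcna and Ckap2l the shares were 0.494% and 0.769% in injected libraries, against 1.08% and 0.878% in uninjected libraries.

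Ckap2l and Mcm5 lie beside genes that myeloid cells express. On GRCr8, Ckap2l stands between Slc20a1 and Il1a, the gene of interleukin 1 alpha, and Mcm5 between Hmox1, the gene of haem oxygenase, and Rasd2. In neutrophils Il1a was at 751 and 880.1 UPM in injected libraries, against 618 and 431 UPM in uninjected libraries. In macrophages it was at 505 and 280.0 UPM in injected libraries, against 184 and 189.6 UPM in uninjected libraries. In neutrophils Hmox1 was at 3364 and 1391 UPM in injected libraries, against 8661 and 4204 UPM in uninjected libraries. In macrophages Ckap2l and Il1a were both higher in both injected libraries. In neutrophils Il1a was higher in both, and Ckap2l overlapped in UPM but was higher in both injected libraries after the TMM scaling used in the tests, at 583 and 687 counts per 1000000 in injected libraries, against 520.0 and 305 in uninjected libraries. In neutrophils Mcm5 and Hmox1 were both lower in both injected libraries. Dendritic cells, given below, had the same order, but the other classes did not. In T and NK cells Hmox1 was at 197 and 79.1 UPM in injected libraries, against 1030 and 370 in uninjected libraries, while Mcm5 overlapped. In fibroblasts Mcm5 was lower in both injected libraries, while Hmox1 overlapped. In macrophages and keratinocytes both genes overlapped. How the deposited counts divide reads between such neighbours is not given in the sources used here, so Ckap2l and Mcm5 are uncertain where these neighbours are expressed, and the part of the neighbours in these values was not tested.

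**Figure D2:**
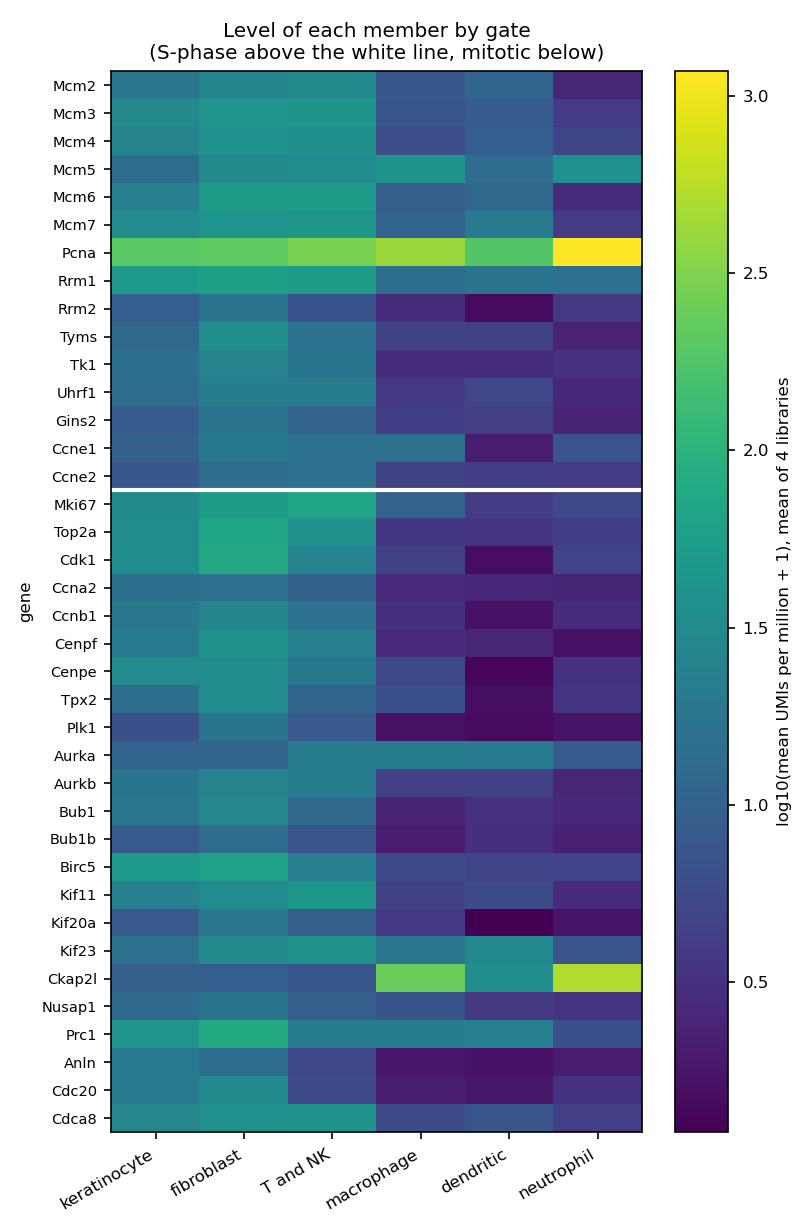
Level of each of the 38 members in each gated class, as the mean of 4 libraries in UMIs per 1000000 UMIs (UPM) on a log scale. Neutrophils are low for nearly all members but reach 951 and 913 (injected) and 1137 and 1680.4 (uninjected) UPM for Pcna.

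In T and NK cells the summed mitotic genes were higher in the injected libraries. The mitotic sum was 7.08 and 5.62 UMIs per 10000 in injected libraries, against 3.38 and 2.60 UMIs per 10000 in uninjected libraries, a ratio of 2.12 between the group means, and rested on 1462 and 483 UMIs in injected libraries, against 104 and 376 in uninjected libraries. The S-phase sum was 5.10 and 4.50 UMIs per 10000 in injected libraries, against 3.02 and 2.87 UMIs per 10000 in uninjected libraries, a ratio of 1.63. Both sums were higher in both injected libraries than in either uninjected one. Of thinned T and NK cells in injected libraries, 9.47% (95% Wilson interval 6.92% to 12.8%) and 5.81% (95% Wilson interval 3.08% to 10.7%) reached 2 mitotic UMIs. In uninjected libraries the shares were 4.88% (95% Wilson interval 1.91% to 11.9%) and 5.05% (95% Wilson interval 3.08% to 8.16%), with overlapping intervals. Gene by gene, 0 of the 34 members tested passed the edgeR test at an adjusted p under 0.05, where 0% of the 8312 genes tested passed in either direction. At an unadjusted p under 0.05 there were 9 members, beside 541 of the 8312 genes tested. DESeq2 called 0 of the 26 members to which it gave an adjusted p. All 20 tested mitotic members had a positive log2 change with a median of 1.16, and 10 of 14 S-phase members with a median of 0.42, beside -0.01 for all genes tested. With doublets kept the mitotic median was 0.67, and the S-phase median ranged over the alternatives between 0.23 without injected library 1 and 0.70 without uninjected library 1. Both injected libraries stood above both uninjected ones for 18 of 34 members, against 21.0% of all genes tested.

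Values per library are given as counts per 1000000 after TMM scaling (CPM), starting with the kinases and cyclins of mitotic entry. Cdk1 had 45.0 and 34.9 CPM in injected, against 7.85 and 4.76 CPM in uninjected libraries. The groups did not overlap, and this was the largest change of any member in the class (log2 2.89, SE 0.47, edgeR adjusted p = 0.334). Ccna2, cyclin A2, a partner of Cdk1, had 13.8 and 13.1 CPM in injected, against 7.85 and 2.04 CPM in uninjected libraries (log2 2.08, SE 0.71). Plk1, the polo-like kinase of centrosomes and spindle, had 11.5 and 10.9 CPM in injected, against 3.93 and 2.04 CPM in uninjected libraries (log2 2.20, SE 0.68). In both genes each uninjected library was below each injected one, and uninjected library 2 was the lowest. Over all libraries this gate held 139 UMIs of Cdk1, 47 of Ccna2 and 39 of Plk1, so few UMIs set the uninjected values. Ccnb1, cyclin B1, had 20.7 and 14.2 CPM in injected, against 19.6 and 4.76 CPM in uninjected libraries. Uninjected library 1 lay inside the injected range for this gene.

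Genes of chromosome structure and the spindle gave similar orders. Top2a had 60.2 and 61.0 CPM in injected, against 19.6 and 12.9 CPM in uninjected libraries. Its groups did not overlap, and its change had the lowest adjusted p after that of Cdk1 (log2 2.05, SE 0.36, edgeR adjusted p = 0.342). Mki67, whose protein coats mitotic chromosomes and marks proliferation, had 103 and 73.0 CPM in injected, against 86.4 and 15.6 CPM in uninjected libraries. Here uninjected library 1 lay between the injected values, and uninjected library 2 alone was low. Aurkb, the kinase of the chromosomal passenger complex, had 37.2 and 22.9 CPM in injected, against 11.8 and 11.6 CPM in uninjected libraries (log2 1.40, SE 0.45). Birc5, survivin of the same complex, had 32.6 and 21.8 CPM in injected, against 15.7 and 15.0 CPM in uninjected libraries (log2 0.88, SE 0.42). Bub1, a kinase of the spindle checkpoint, had 14.7 and 18.5 CPM in injected, against 7.85 and 6.12 CPM in uninjected libraries (log2 1.32, SE 0.53). For these 3 genes both injected libraries were above both uninjected ones. Tpx2, which assembles the spindle and activates Aurora A, had 16.1 and 10.9 CPM in injected, against 7.85 and 5.44 CPM in uninjected libraries (log2 1.22, SE 0.57). Prc1, which bundles the central spindle, had 33.1 and 17.4 CPM in injected, against 15.7 and 15.6 CPM in uninjected libraries. The groups did not overlap for either gene, but for Prc1 injected library 2 was close to both uninjected ones. Kif11, the kinesin that separates spindle poles, had 54.7 and 40.3 CPM in injected, against 62.8 and 25.9 CPM in uninjected libraries. Its highest value was that of uninjected library 1.

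The S-phase members were mixed. Tyms, thymidylate synthase, had 17.0 and 30.5 CPM in injected, against 3.93 and 8.16 CPM in uninjected libraries (log2 1.64, SE 0.56). Mcm6 had 78.6 and 65.4 CPM in injected, against 15.7 and 39.5 CPM in uninjected libraries (log2 1.15, SE 0.37). Neither gene overlapped between the groups, but Tyms rested on 78 UMIs over all libraries of the gate. Mcm2 had 28.5 and 29.4 CPM in injected, against 43.2 and 25.2 CPM in uninjected libraries. Mcm5 had 43.2 and 32.7 CPM in injected, against 35.3 and 23.1 CPM in uninjected libraries. For both helicase genes uninjected library 1 lay within or above the injected range. Tk1, thymidine kinase, had 20.7 and 17.4 CPM in injected, against 23.6 and 5.44 CPM in uninjected libraries. Uhrf1, which guides the upkeep of DNA methylation, had 23.9 and 20.7 CPM in injected, against 27.5 and 13.6 CPM in uninjected libraries. In these too uninjected library 1 was the highest and uninjected library 2 the lowest. Ccne1, cyclin E1, which starts S phase, had 16.5 and 18.5 CPM in injected, against 11.8 and 12.9 CPM in uninjected libraries. Ccne2, cyclin E2, had 12.4 and 10.9 CPM in injected, against 27.5 and 12.2 CPM in uninjected libraries (log2 -0.47, SE 0.54). Pcna had 257 and 256 CPM in injected, against 373 and 298 CPM in uninjected libraries. Ccne1 was higher in both injected libraries and Pcna lower in both, while Ccne2 had the lowest log2 change of the class and overlapped. Anln, Bub1b, Cdc20 and Rrm2 were too low to be tested, at up to 12.6 UPM in a library.

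The calls depended on the library and the filter, and the shares of all genes that passed under the settings that follow are not given here. Without uninjected library 1, Mki67, Cdk1 and Top2a passed as higher, and without uninjected library 2, Kif23 and Mcm6 did. Where only 1 library of a group is left, it is assumed to vary like the other group. With no filter on low counts, Cdk1, Top2a and Mki67 passed. Markers of other cell types also differed between the groups in this gate. The 11 neutrophil markers summed to 1.19 and 0.710 UMIs per 10000 in injected libraries, against 4.45 and 4.04 in uninjected libraries, mostly G0s2, with Padi4 and Camp at 0 in all 4. Of the others, S100a9 was at 0.0823 and 0.0116 in injected libraries, against 0.942 and 0.387 in uninjected libraries. S100a8 was at 0.0194 and 0.0233 in injected libraries, against 0.617 and 0.0276 in uninjected libraries, and Il1r2 overlapped. The 16 keratinocyte markers summed to 4.99 and 7.65 in injected libraries, against 17.4 and 7.62 in uninjected libraries. Their part in the result was not tested. Median depth of the gate was 4532.5 and 4390 UMIs a cell in injected libraries, against 3206.5 and 4314 in uninjected libraries.

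In fibroblasts the summed mitotic genes were lower in the injected libraries. The mitotic sum was 6.55 and 5.55 UMIs per 10000 in injected libraries, against 7.61 and 10.2 UMIs per 10000 in uninjected libraries, a ratio of 0.681, with both injected libraries below both uninjected ones. The S-phase sum was 3.97 and 3.65 UMIs per 10000 in injected libraries, against 3.90 and 5.78 UMIs per 10000 in uninjected libraries, which overlapped. Of thinned fibroblasts in injected libraries, 11.0% (95% Wilson interval 9.08% to 13.3%) and 9.79% (95% Wilson interval 7.60% to 12.5%) reached 2 mitotic UMIs. In uninjected libraries the shares were 13.1% (95% Wilson interval 9.94% to 17.0%) and 20.2% (95% Wilson interval 17.2% to 23.6%). These intervals cover counting error alone, and that of uninjected library 1 overlaps both injected ones. Again 0 of 38 members passed the edgeR test, where 0.0303% of the 13211 genes tested were called higher and 0.00757% lower. At an unadjusted p under 0.05 there were 12 members, beside 1431 of the 13211 genes tested, and DESeq2 called 1, Tpx2, as lower. The log2 change was negative in 35 of 38, with a median of -0.42 for mitotic and -0.32 for S-phase members, beside 0.00 for all genes. Without uninjected library 2 the mitotic median was -0.19 and the S-phase median -0.16, and without injected library 2 the mitotic median was -0.25. Both injected libraries lay below both uninjected ones for 23 of 38 members, against 20.5% of all genes tested.

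Tpx2 had 21.5 and 17.2 CPM in injected, against 47.9 and 41.3 CPM in uninjected libraries. The groups were far apart for this spindle gene, the lowest of the class (log2 -1.20, SE 0.23, edgeR adjusted p = 0.229). Plk1 had 11.5 and 10.6 CPM in injected, against 21.9 and 21.0 CPM in uninjected libraries (log2 -0.95, SE 0.22). Ccna2 had 10.3 and 10.2 CPM in injected, against 20.8 and 18.4 CPM in uninjected libraries (log2 -0.93, SE 0.23). Ccnb1 had 16.7 and 21.1 CPM in injected, against 31.9 and 34.4 CPM in uninjected libraries (log2 -0.81, SE 0.22). In each of these 3 genes of mitotic entry the higher injected library was well below the lower uninjected one. Cdk1, their partner kinase, had 69.8 and 57.1 CPM in injected, against 72.3 and 97.3 CPM in uninjected libraries. Injected library 1 came close to uninjected library 1 for Cdk1. Top2a had 58.6 and 49.1 CPM in injected, against 94.5 and 78.6 CPM in uninjected libraries (log2 -0.68, SE 0.23). Kif11 had 27.9 and 21.9 CPM in injected, against 36.3 and 43.9 CPM in uninjected libraries. Cdc20, which activates the anaphase-promoting complex, had 21.9 and 26.3 CPM in injected, against 35.3 and 40.1 CPM in uninjected libraries. None of these 3 overlapped between the groups. Birc5 had 53.7 and 46.6 CPM in injected, against 66.0 and 77.4 CPM in uninjected libraries. Aurkb had 23.2 and 20.9 CPM in injected, against 23.2 and 31.5 CPM in uninjected libraries. Prc1 had 79.8 and 54.3 CPM in injected, against 80.2 and 91.3 CPM in uninjected libraries. For Aurkb and Prc1 injected library 1 and uninjected library 1 were nearly equal, while Birc5 was lower in both injected libraries by a wider margin. Mki67 had 51.1 and 39.8 CPM in injected, against 41.0 and 67.4 CPM in uninjected libraries. Bub1 had 27.8 and 23.6 CPM in injected, against 26.3 and 34.3 CPM in uninjected libraries. Anln, anillin of the contractile ring, had 14.6 and 10.4 CPM in injected, against 13.3 and 13.6 CPM in uninjected libraries. These 3 overlapped between the groups.

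Among the S-phase members the lowest change was that of Uhrf1. Uhrf1 had 15.8 and 13.4 CPM in injected, against 27.0 and 27.5 CPM in uninjected libraries (log2 -0.90, SE 0.21). Rrm2, the regulated subunit of ribonucleotide reductase, had 8.71 and 15.4 CPM in injected, against 17.9 and 21.1 CPM in uninjected libraries (log2 -0.71, SE 0.32). Tk1 had 18.5 and 22.7 CPM in injected, against 31.2 and 28.2 CPM in uninjected libraries (log2 -0.53, SE 0.22). In all 3 both injected libraries were below both uninjected ones. Mcm5 had 25.9 and 23.3 CPM in injected, against 35.3 and 33.5 CPM in uninjected libraries. Mcm2 had 22.9 and 20.5 CPM in injected, against 24.3 and 33.3 CPM in uninjected libraries. For both helicase genes the injected libraries were the lower ones, narrowly for Mcm2. Tyms had 32.5 and 33.3 CPM in injected, against 30.7 and 44.3 CPM in uninjected libraries. Pcna had 229 and 201 CPM in injected, against 205 and 219 CPM in uninjected libraries. Neither separated the groups. Ccne1 had 22.0 and 14.6 CPM in injected, against 15.2 and 20.5 CPM in uninjected libraries. Ccne2 had 13.7 and 8.82 CPM in injected, against 14.8 and 13.6 CPM in uninjected libraries. The E cyclins overlapped as well. Ckap2l had 14.4 and 8.49 CPM in injected, against 6.54 and 4.14 CPM in uninjected libraries (log2 1.15, SE 0.38). Ckap2l was the exception, the highest log2 change of the class, with both injected libraries above both uninjected ones. Its neighbour Il1a stood in fibroblasts at 10.9 and 5.49 UPM in injected libraries, against 2.38 and 2.35 UPM in uninjected libraries, again higher in both injected libraries, and its part in the Ckap2l values was not tested.

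Without uninjected library 1, Tpx2 passed as lower and Ckap2l as higher. Without uninjected library 2, 7 members passed as lower: Nusap1, Tpx2, Cenpf, Ccna2, Plk1, Top2a and Uhrf1. With no filter on low counts Tpx2, Nusap1, Plk1, Uhrf1 and Ccna2 passed as lower and Ckap2l as higher. The shares of all genes that passed under these settings are not given here, so the calls have no background beside them. The 12 fibroblast markers that gate these cells summed to 498 and 563 UMIs per 10000 in injected libraries, against 394 and 401 in uninjected libraries. The 14 macrophage markers summed to 14.4 and 13.7 in injected libraries, against 6.06 and 5.99 in uninjected libraries. Most of that was Apoe, at 11.9 and 10.8 in injected libraries, against 4.14 and 3.59 in uninjected libraries, while the defining C1qa, C1qb and C1qc were at or near 0 in all 4. Their part in the result was not tested.

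The injection effect was then compared between T and NK cells and fibroblasts in a single fit with the library as a block, a comparison added after the separate results had been seen. Both effects come from the same 4 libraries. The difference was positive, that is the injected over uninjected change was higher in T and NK cells than in fibroblasts, in 34 of 38 members. Their median was 1.46 and that of all genes 0.08. By the edgeR test 7 members passed as higher and 0 as lower, where 0.323% of the 12380 genes tested passed as higher and 0.767% as lower. Cdk1 had the largest difference (log2 3.49, SE 0.51, adjusted p = 0.000164). The other mitotic kinase was Plk1 (log2 3.22, SE 0.76, adjusted p = 0.0241), and the cyclin was Ccna2 (log2 3.08, SE 0.72, adjusted p = 0.0241). Top2a had the second lowest p (log2 2.74, SE 0.42, adjusted p = 0.000221). The spindle gene Tpx2 passed (log2 2.40, SE 0.59, adjusted p = 0.0322), as did the kinetochore gene Cenpf (log2 2.03, SE 0.48, adjusted p = 0.0258). Of the 7, Mcm6 alone is an S-phase gene (log2 1.56, SE 0.39, adjusted p = 0.0398). The values of Cdk1, Plk1, Ccna2, Top2a and Tpx2 in both classes are given above. In T and NK cells Cenpf had 30.8 and 25.1 CPM in injected, against 23.6 and 9.53 CPM in uninjected libraries. In fibroblasts Cenpf had 30.7 and 25.1 CPM in injected, against 53.6 and 47.3 CPM in uninjected libraries. Cenpf thus stood higher in injected T and NK cells and lower in injected fibroblasts, without overlap. In fibroblasts Mcm6 had 50.4 and 43.2 CPM in injected, against 33.9 and 70.7 CPM in uninjected libraries. The fibroblast values of Mcm6 overlapped. The calls depended on the libraries, and the shares of all genes that passed under the settings that follow are not given here. Without injected library 1 or without injected library 2, Cdk1 and Top2a passed. Without uninjected library 1 there were 16, and without uninjected library 2 there were 2, Top2a and Kif23. With no low-count filter there were 12. Thus Top2a passed under each of these settings, and Cdk1 under each but the loss of uninjected library 2.

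In the same test, 4 other mitotic genes and 1 other replication gene outside the 38 also passed as higher, and no gene of the related lists passed as lower. They were Mybl2, a transcription factor of mitotic genes (log2 3.98, SE 0.73, adjusted p = 0.0029), Ect2, which starts cytokinesis (log2 2.68, SE 0.62, adjusted p = 0.0239), Ube2c, a ubiquitin carrier of the anaphase-promoting complex (log2 1.96, SE 0.46, adjusted p = 0.0241), Cdkn3, a phosphatase that acts on CDKs (log2 1.77, SE 0.46, adjusted p = 0.0495), and Cdc45 of the replicative helicase (log2 2.15, SE 0.53, adjusted p = 0.0336).

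**Figure D3:**
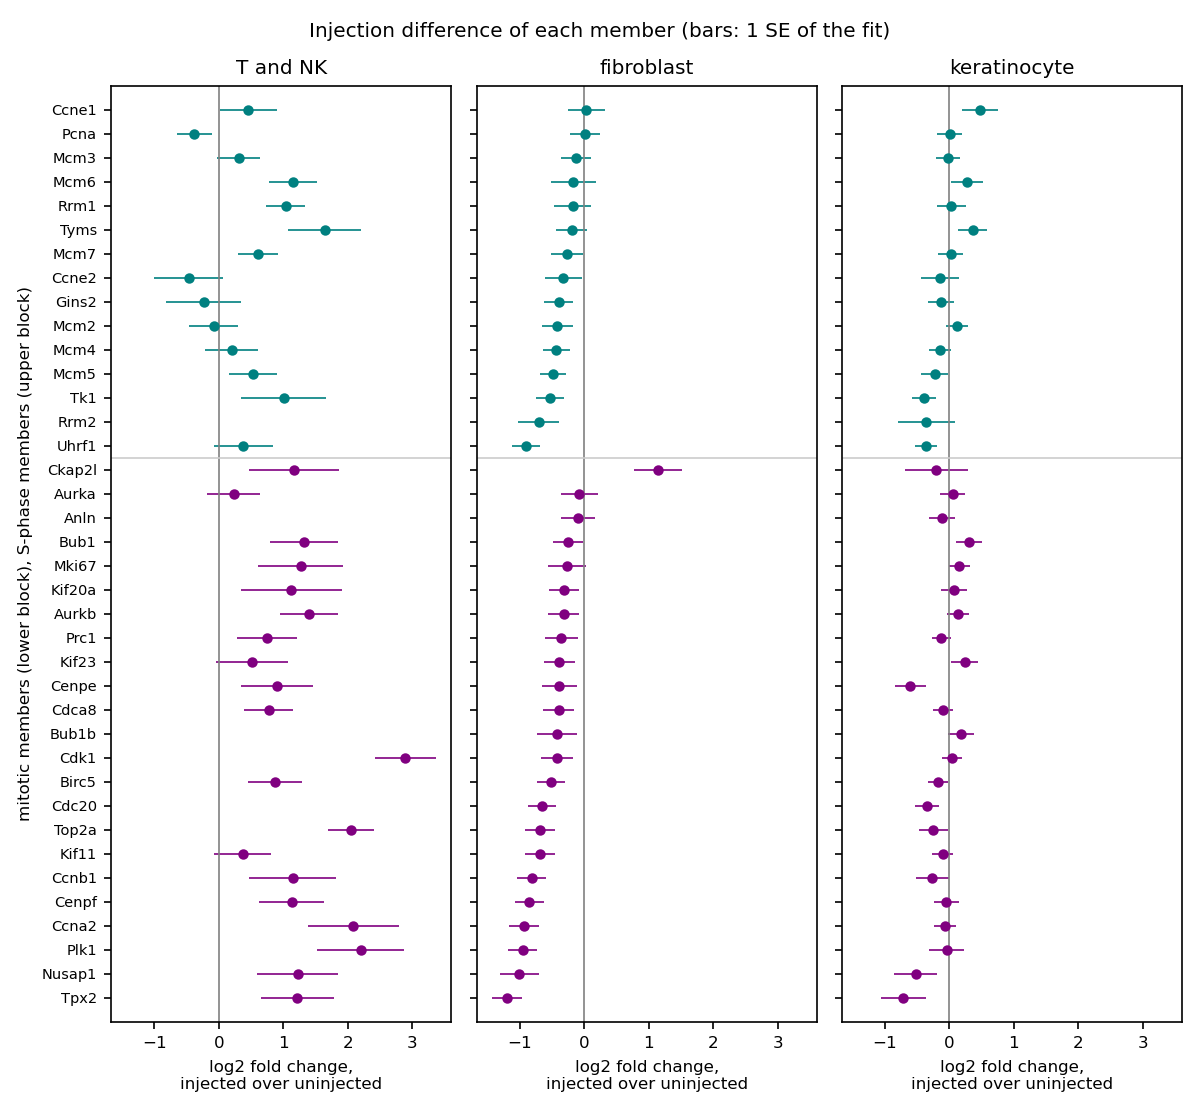
Log2 change, injected over uninjected, of each member in T and NK cells, fibroblasts and keratinocytes, with standard errors. Cdk1 lies at 2.89 in T and NK cells and at -0.42 in fibroblasts, and Tpx2 lies at 1.22 in T and NK cells and at -1.20 in fibroblasts.

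**Figure D4:**
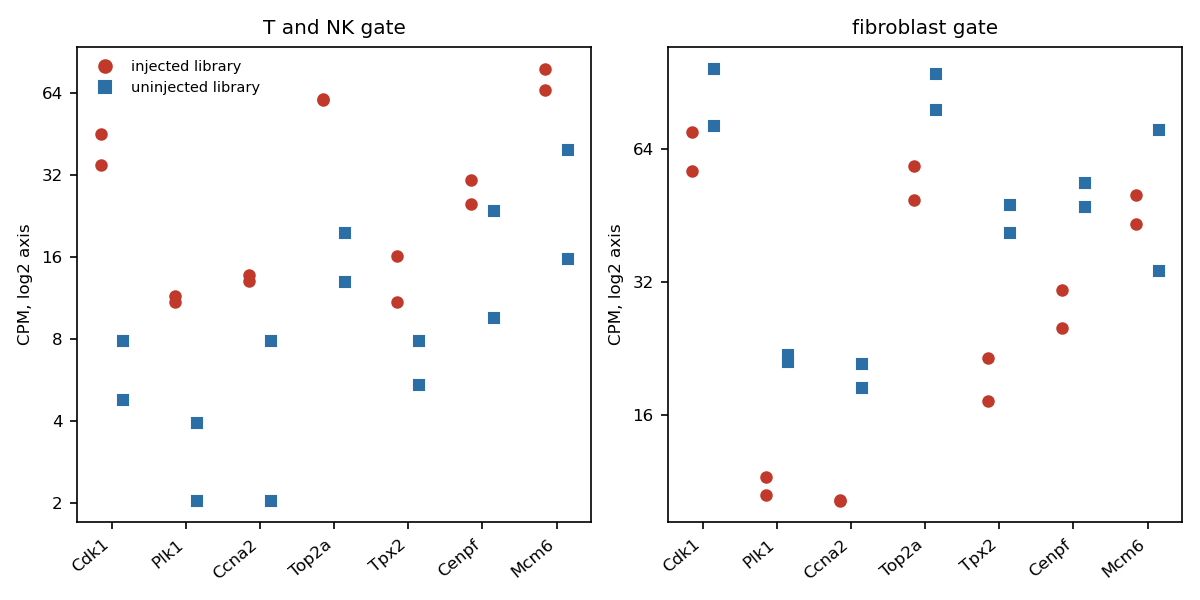
Values of members in each library (CPM) for T and NK cells and fibroblasts, injected libraries left of uninjected ones. Top2a had 60.2 and 61.0 CPM in injected libraries, against 19.6 and 12.9 CPM in uninjected libraries in T and NK cells, and 58.6 and 49.1 CPM in injected libraries, against 94.5 and 78.6 CPM in uninjected libraries in fibroblasts.

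Keratinocytes, the most numerous class, differed little between the groups. The mitotic sum was 4.57 and 4.79 UMIs per 10000 in injected libraries, against 4.39 and 4.83 UMIs per 10000 in uninjected libraries, and the S-phase sum was 2.61 and 2.76 UMIs per 10000 in injected libraries, against 2.16 and 2.76 UMIs per 10000 in uninjected libraries. Of the 38 members, 0 passed the edgeR test, 0 passed DESeq2 and 0 had an unadjusted p under 0.05. Of the 14654 genes tested, 0% passed edgeR and 629 genes had an unadjusted p under 0.05. The log2 change was positive in 15 and negative in 23. Both injected libraries lay above both uninjected ones for 6 members, against 18.5% of all genes, and below for 7, against 17.6%. Ccne1 had 10.7 and 10.1 CPM in injected, against 5.73 and 9.24 CPM in uninjected libraries (log2 0.47, SE 0.28). Tpx2 had 10.2 and 10.9 CPM in injected, against 23.0 and 11.6 CPM in uninjected libraries (log2 -0.71, SE 0.35). These were the highest and the lowest change, and for both uninjected library 1 held the extreme value. Mki67 had 30.5 and 33.6 CPM in injected, against 27.1 and 30.5 CPM in uninjected libraries. Cdk1 had 34.5 and 32.6 CPM in injected, against 30.0 and 35.2 CPM in uninjected libraries. Top2a had 24.8 and 33.8 CPM in injected, against 38.9 and 30.8 CPM in uninjected libraries. None of these 3 separated the groups.

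The other mitotic genes of keratinocytes lay close together. Ccna2 had 13.4 and 14.6 CPM in injected, against 15.3 and 14.0 CPM in uninjected libraries. Ccnb1 had 13.5 and 19.3 CPM in injected, against 22.7 and 16.8 CPM in uninjected libraries. Plk1 had 4.52 and 6.13 CPM in injected, against 6.33 and 4.66 CPM in uninjected libraries. These genes of mitotic entry overlapped between the groups. Aurkb had 16.7 and 17.1 CPM in injected, against 14.5 and 16.4 CPM in uninjected libraries. Bub1 had 17.4 and 20.0 CPM in injected, against 13.1 and 17.0 CPM in uninjected libraries. Birc5 had 42.6 and 47.1 CPM in injected, against 50.01 and 51.5 CPM in uninjected libraries. Aurkb and Bub1 were slightly higher in both injected libraries and Birc5 slightly lower. Kif11 had 24.1 and 20.5 CPM in injected, against 23.8 and 24.2 CPM in uninjected libraries. Prc1 had 40.0 and 41.7 CPM in injected, against 43.5 and 45.6 CPM in uninjected libraries. Anln had 20.9 and 17.4 CPM in injected, against 18.2 and 23.0 CPM in uninjected libraries. Of these Prc1 was lower in both injected libraries and the others overlapped. Cdc20 had 15.6 and 19.7 CPM in injected, against 22.0 and 22.8 CPM in uninjected libraries (log2 -0.34, SE 0.19). Cdc20 was lower in both injected libraries.

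The S-phase genes of keratinocytes showed the same closeness. Mcm2 had 16.8 and 18.5 CPM in injected, against 15.3 and 17.1 CPM in uninjected libraries. Mcm5 had 10.7 and 12.6 CPM in injected, against 15.4 and 11.9 CPM in uninjected libraries. Pcna had 188 and 207 CPM in injected, against 189 and 206 CPM in uninjected libraries. All 3 overlapped. Rrm2 had 4.21 and 10.6 CPM in injected, against 9.93 and 9.09 CPM in uninjected libraries. Ccne2 had 6.52 and 6.46 CPM in injected, against 8.95 and 5.43 CPM in uninjected libraries. These overlapped too, with injected library 1 the lowest for Rrm2. Tk1 had 11.1 and 13.0 CPM in injected, against 17.0 and 14.7 CPM in uninjected libraries (log2 -0.39, SE 0.19). Uhrf1 had 11.1 and 12.1 CPM in injected, against 15.6 and 14.2 CPM in uninjected libraries (log2 -0.36, SE 0.17). Tyms had 11.7 and 13.0 CPM in injected, against 8.08 and 11.1 CPM in uninjected libraries (log2 0.36, SE 0.23). Tk1 and Uhrf1 were lower in both injected libraries and Tyms higher in both. The 14 macrophage markers summed to 189.6 and 174 UMIs per 10000 of this gate in injected libraries, against 82.9 and 131 in uninjected libraries, nearly all Apoe, with C1qa, C1qb and C1qc at or near 0. Their part in these values was not tested. The difference between the fibroblast and the keratinocyte effect was negative in 36 of 38 members, with a median of -0.41. By edgeR 0 passed, where 0% of 15196 genes passed, and 13 had an unadjusted p under 0.05, beside 1139 of all genes tested.

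Macrophages, dendritic cells and neutrophils carried too little of many members for a test. In macrophages 17 of 38 were tested, and the other 21 stayed at or under 10.2 UPM in every library. By edgeR 0 passed, where 0.0114% of 8749 genes were called lower and 0% higher, and 1 had an unadjusted p under 0.05, Ckap2l. Of all 8749 genes 482 did, so 1 of 17 lay near the background. Ckap2l had 465 and 302 CPM in injected, against 124 and 139 CPM in uninjected libraries. It was higher in both injected libraries (log2 1.53, SE 0.37, edgeR adjusted p = 0.724) and passed without uninjected library 1, without uninjected library 2 and with no low-count filter. Uninjected library 1 holds only 60 macrophages. Mcm7 had 7.45 and 5.05 CPM in injected, against 15.5 and 10.8 CPM in uninjected libraries (log2 -0.87, SE 0.51). Prc1 had 15.9 and 13.3 CPM in injected, against 30.9 and 22.1 CPM in uninjected libraries. Mcm2 had 6.09 and 4.13 CPM in injected, against 10.3 and 7.21 CPM in uninjected libraries. Mcm7 had the lowest change, and all 3 were lower in both injected libraries. Mki67 had 15.9 and 9.18 CPM in injected, against 10.3 and 4.96 CPM in uninjected libraries. Tpx2 had 7.11 and 2.29 CPM in injected, against 10.3 and 2.71 CPM in uninjected libraries. Mcm5 had 48.4 and 22.5 CPM in injected, against 41.3 and 50.5 CPM in uninjected libraries. These overlapped between the groups. Pcna had 424 and 428 CPM in injected, against 376 and 431 CPM in uninjected libraries. Ccne1 had 15.6 and 8.72 CPM in injected, against 20.6 and 15.8 CPM in uninjected libraries. Pcna overlapped and Ccne1 was lower in both injected libraries. Both injected libraries lay below both uninjected ones for 4 of 17 members (23.5%), against 17.5% of all genes. They lay above for 4 members, against 20.6% of all genes, so these separations were near the background.

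In dendritic cells 13 of 38 were tested, and the other 25 stayed at or under 7.44 UPM. By edgeR 0 passed, where 0% of 8250 genes passed, with 1 at an unadjusted p under 0.05, beside 397 of all genes tested. Ckap2l had 32.5 and 60.8 CPM in injected, against 25.7 and 15.9 CPM in uninjected libraries (log2 1.29, SE 0.48). Mcm5 had 8.94 and 5.61 CPM in injected, against 28.9 and 12.6 CPM in uninjected libraries (log2 -1.21, SE 0.61). These were the highest and the lowest change, and neither overlapped. Their neighbours had the same group order. In dendritic cells Il1a was at 42.0 and 49.1 UPM in injected libraries, against 26.4 and 21.5 UPM in uninjected libraries. Hmox1 was at 278 and 413 UPM in injected libraries, against 1780 and 566 UPM in uninjected libraries. The part of these neighbours in the Ckap2l and Mcm5 values was not tested. Mcm2 had 13.2 and 7.48 CPM in injected, against 6.41 and 13.0 CPM in uninjected libraries. Pcna had 187 and 161 CPM in injected, against 215 and 192 CPM in uninjected libraries. Prc1 had 29.2 and 11.2 CPM in injected, against 16.03 and 31.1 CPM in uninjected libraries. Pcna was lower in both injected libraries, and Mcm2 and Prc1 overlapped. Both injected libraries lay below both uninjected ones for 3 of 13 members (23.1%), against 16.7% of all genes. They lay above for 3 members, against 18.1% of all genes, so these separations were near the background.

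In neutrophils 20 of 38 were tested, and the other 18 stayed at or under 5.64 UPM. By edgeR 0 passed, where 0% of 7554 genes passed, with 4 at an unadjusted p under 0.05, beside 771 of all genes tested. Both injected libraries were below both uninjected ones for 8 of 20 members, against 21.8% of all genes, and above for 2, against 22.0%. Mki67 had 1.28 and 3.22 CPM in injected, against 8.12 and 4.78 CPM in uninjected libraries (log2 -1.76, SE 0.62). Rrm1, the large subunit of ribonucleotide reductase, had 17.6 and 20.1 CPM in injected, against 11.1 and 11.3 CPM in uninjected libraries (log2 0.74, SE 0.33). These were the lowest and the highest change, at levels where few UMIs set the value. Birc5 had 2.55 and 0.805 CPM in injected, against 7.22 and 4.27 CPM in uninjected libraries. Top2a had 2.81 and 2.42 CPM in injected, against 4.21 and 3.77 CPM in uninjected libraries. Rrm2 had 2.04 and 2.42 CPM in injected, against 2.71 and 4.52 CPM in uninjected libraries. All 3 were lower in both injected libraries. Cdk1 had 4.08 and 2.42 CPM in injected, against 5.71 and 2.76 CPM in uninjected libraries. Prc1 had 3.32 and 6.44 CPM in injected, against 6.32 and 5.78 CPM in uninjected libraries. Cdc20 had 3.06 and 2.42 CPM in injected, against 2.71 and 1.01 CPM in uninjected libraries. These overlapped. Tk1 had 1.79 and 3.22 CPM in injected, against 2.71 and 1.01 CPM in uninjected libraries. Ccne1 had 6.38 and 7.25 CPM in injected, against 5.11 and 7.04 CPM in uninjected libraries. Ccne2 had 2.81 and 2.42 CPM in injected, against 3.31 and 3.77 CPM in uninjected libraries. Of these Ccne2 was lower in both injected libraries. Mcm5 had 26.3 and 19.3 CPM in injected, against 59.6 and 43.0 CPM in uninjected libraries (log2 -1.15, SE 0.37). Pcna had 1005 and 939.7 CPM in injected, against 1031 and 1750.0 CPM in uninjected libraries (log2 -0.52, SE 0.40). Both were lower in both injected libraries, and Mcm5 passed as lower without uninjected library 2. DESeq2 called 0 members in these 3 classes, giving an adjusted p to 8 members in macrophages, 38 in dendritic cells and 7 in neutrophils.

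Within the epidermis, helicase genes, Pcna and part of the mitotic genes were higher in basal than in suprabasal cells. Keratinocytes were split by the ratio of UMIs of 9 suprabasal markers, such as Krt1, Krt10 and Ivl, to those of 8 basal markers, such as Krt5, Krt14 and Itga6. Basal cells had a ratio under 0.05 and suprabasal cells one of at least 0.25. This gave 5600 basal cells, 2361 suprabasal cells and 4854 cells between them. With the library as a block, 14 of 38 members passed as higher in basal cells and 0 as lower by the edgeR test, where 25.2% of the 13239 genes tested passed as higher and 26.6% as lower. The 14 were 6 S-phase members (Pcna, Mcm2, Mcm3, Mcm4, Mcm5 and Mcm6) and 8 mitotic members (Anln, Ccna2, Cenpf, Cdk1, Bub1b, Kif23, Top2a and Aurkb). In the order injected 1, injected 2, uninjected 1 and uninjected 2, Mcm2 had 17.2, 18.9, 13.3 and 21.1 CPM in basal cells, against 8.23, 11.0, 12.3 and 6.47 CPM in suprabasal cells. It was the largest difference (log2 0.90, SE 0.22, adjusted p = 0.00628), and each library showed it. In the same order Anln had 20.3, 19.5, 18.9 and 28.3 CPM in basal cells, against 12.2, 11.7, 13.2 and 11.7 CPM in suprabasal cells (log2 0.83, SE 0.13, adjusted p = 0.000568), and Ccna2 had 12.2, 12.9, 13.6 and 16.04 CPM in basal cells, against 6.23, 8.85, 9.12 and 8.11 CPM in suprabasal cells (log2 0.75, SE 0.13, adjusted p = 0.00084). Both were higher in basal cells in 4 of 4 libraries. Cdk1 had 32.7, 30.3, 29.2 and 37.9 CPM in basal cells, against 23.4, 25.4, 23.3 and 21.7 CPM in suprabasal cells in that order (log2 0.47, SE 0.10, adjusted p = 0.00394). Top2a had 22.2, 30.0, 33.0 and 34.8 CPM in basal cells, against 16.5, 23.8, 33.6 and 18.8 CPM in suprabasal cells (log2 0.40, SE 0.13, adjusted p = 0.0311), with uninjected library 1 the exception. Over the 4 libraries Mcm5 ranged over 10.8 to 14.9 CPM in basal cells, against 5.61 to 11.7 CPM in suprabasal cells, Mcm3 over 23.5 to 36.8 CPM in basal cells, against 13.8 to 20.2 CPM in suprabasal cells, and Mcm6 over 13.1 to 24.8 CPM in basal cells, against 10.1 to 14.7 CPM in suprabasal cells. Pcna ranged over 183 to 225 CPM in basal cells, against 149 to 171 CPM in suprabasal cells (log2 0.36, SE 0.07, adjusted p = 0.00253), without overlap. Cenpf ranged over 17.2 to 22.6 CPM in basal cells, against 9.23 to 16.7 CPM in suprabasal cells (log2 0.69, SE 0.12, adjusted p = 0.000932), again without overlap. Kif23, a kinesin of cytokinesis, ranged over 10.1 to 17.1 CPM in basal cells, against 7.98 to 13.4 CPM in suprabasal cells, Bub1b, of the spindle checkpoint, over 6.67 to 8.90 CPM in basal cells, against 4.96 to 5.87 CPM in suprabasal cells, Aurkb over 11.5 to 17.9 CPM in basal cells, against 10.2 to 13.1 CPM in suprabasal cells and Mcm4 over 21.9 to 26.8 CPM in basal cells, against 13.8 to 24.5 CPM in suprabasal cells. These 4 were higher in basal cells in 4 of 4 libraries. Other mitotic members did not show this order. Cenpe, the kinetochore motor, was the lowest, at 18.8 to 33.7 CPM in basal cells, against 22.6 to 63.4 CPM in suprabasal cells (log2 -0.36, SE 0.20, adjusted p = 0.165), and Prc1 ranged over 30.4 to 46.0 CPM in basal cells, against 36.2 to 48.9 CPM in suprabasal cells (log2 -0.25, SE 0.14, adjusted p = 0.174). Mki67 ranged over 25.6 to 34.4 CPM in basal cells, against 24.2 to 28.0 CPM in suprabasal cells (log2 0.25, SE 0.10, adjusted p = 0.054) and did not pass. Ccnb1 (log2 -0.01, SE 0.12, adjusted p = 0.935), Cdc20 (log2 -0.09, SE 0.12, adjusted p = 0.544) and Tk1 (log2 -0.15, SE 0.14, adjusted p = 0.409) did not pass. The cells between the gates held more mitotic RNA than basal cells in 3 of 4 libraries, with 5.20 and 5.65 UMIs per 10000 in injected libraries, against 5.05 and 5.20 in uninjected libraries. Basal cells held 4.37 and 4.48 UMIs per 10000 in injected libraries, against 4.04 and 5.34 UMIs per 10000 in uninjected libraries, and suprabasal cells held 3.49 and 3.87 UMIs per 10000 in injected libraries, against 3.80 and 3.28 UMIs per 10000 in uninjected libraries. Uninjected library 2 was the exception, with the highest basal value. DESeq2 called 11 as higher. The shares of all genes that passed under this and the next settings are not given here. With wider margins between the gates 6 passed as higher (Anln, Cenpf, Pcna, Ccna2, Mcm2 and Mcm3) and 3 as lower (Rrm2, Cdc20 and Prc1). Without uninjected library 1, 20 passed as higher. Without uninjected library 2, 10 passed as higher and 3 as lower (Prc1, Rrm1 and Cenpe). The lower calls thus appeared with the wider gate or without uninjected library 2.

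**Figure D5:**
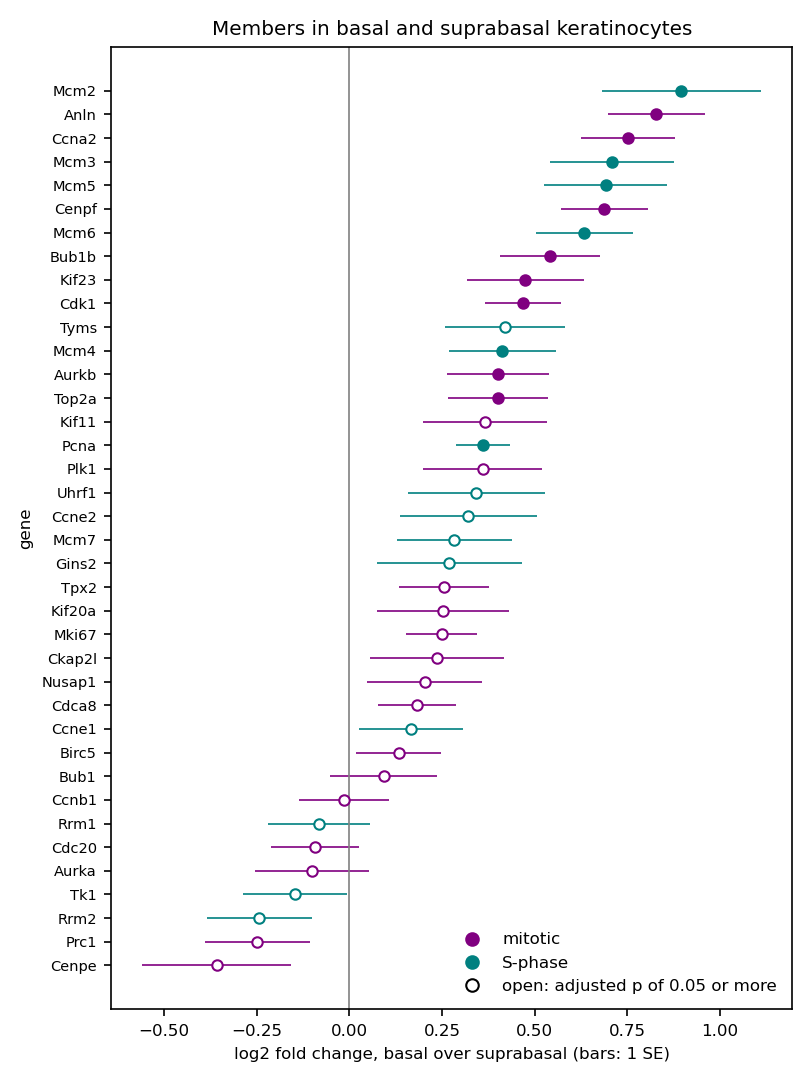
Log2 difference of each member, basal over suprabasal keratinocytes, with standard errors, the 14 that passed at an adjusted p under 0.05 marked. Values run between 0.90 for Mcm2 and -0.36 for Cenpe.

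Related cell cycle genes outside the 38 were followed as 4 lists: other mitotic genes, other replication genes, cyclins and regulators of G1, and CDK inhibitors with genes of quiescence. Between injected and uninjected libraries 0 of their genes passed by edgeR in any class. In T and NK cells 24 of 25 tested other mitotic genes had a positive log2 change (median 0.79, 7 at an unadjusted p under 0.05), and in fibroblasts 29 of 30 had a negative one (median -0.44, 6 at an unadjusted p under 0.05). Other replication genes were positive in 14 of 22 in T and NK cells (median 0.28, 3 at an unadjusted p under 0.05) and negative in 20 of 25 in fibroblasts (median -0.30). The G1 list was positive in 5 of 10 in T and NK cells (median 0.02) and in 3 of 13 in fibroblasts (median -0.26). The inhibitor list was positive in 9 of 12 in T and NK cells (median 0.31) and in 7 of 14 in fibroblasts (median 0.06). In T and NK cells the ends of the lists were Mybl2 (3.42) and Cks2 (-0.51) among mitotic genes, Cdc45 (1.63) and Pold1 (-1.53) among replication genes, Cdk2 (1.28) and Id1 (-1.48) in G1, and Rbl1 (1.77) and Tob1 (-0.52) among inhibitors, all as log2 changes. In fibroblasts they were Ccnf (0.34) and Pttg1 (-0.95), Orc6 (0.30) and Clspn (-0.96), Myc (0.39) and Id1 (-1.23), and Cdkn1c (1.32) and Cdkn2a (-2.22). Cdkn1c and Cdkn2a encode the CDK inhibitors p57 and p16. In keratinocytes the ends were Nek2 (0.31) and Pttg1 (-0.81), Chaf1b (0.31) and Prim1 (-0.39), Cdc25a (0.46) and Cdk4 (-0.28), and Ccng1 (0.60) and Cdkn2a (-0.60). In macrophages the ends were Pttg1 (1.61) and Cdc25c (-0.65) among mitotic genes, Fen1 (0.69) at the upper end among replication genes, Id1 (0.58) and E2f2 (-1.07) in G1, and Ccng1 (1.38) and Btg2 (-0.54) among inhibitors. In dendritic cells, in the same order of lists, they were Tacc3 (0.48) and Cenpa (-1.49), Pola1 (0.79) at the upper end, E2f2 (0.72) and Id2 (-0.61), and Cdkn1b (0.60) and Btg2 (-0.20). In neutrophils they were Tacc3 (0.70) and Pttg1 (-2.09), Fen1 (0.82) and Prim1 (-1.72), E2f3 (1.13) and Ccnd1 (-1.73), and Ccng1 (0.32) and Tob1 (-0.79). Over the 4 lists together, the genes at an unadjusted p under 0.05 numbered 0 in keratinocytes, 4 in macrophages, 1 in dendritic cells and 5 in neutrophils. The counts over all genes tested are given with the members of each class above.

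Between basal and suprabasal cells the same lists were counted, where 25.2% of all genes passed as higher and 26.6% as lower. Of 25 other replication genes 8 passed as higher in basal cells and 0 as lower, led by Cdt1, which loads the helicase (log2 1.35, SE 0.26, adjusted p = 0.0018). Of 30 other mitotic genes 12 passed as higher and 2 as lower, Cdkn3 (-0.61) and Mybl2 (-0.37). In the G1 list Id2, Cdk6, Ccnd2, Myc, Id1 and E2f3 passed as higher and E2f2 and Ccnd1 as lower. Of the CDK inhibitor list, 7 of 14 passed as lower in basal cells, namely Ccng1, Cdkn2b, Btg1, Cdkn2c, Ccng2, Cdkn1a and Cdkn1b, and Btg2 passed as higher. Cdkn1a, which encodes p21, had a log2 difference of -0.41, and Cdkn2b, which encodes p15, had -1.03.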

How the data were processed

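Single-cell RNA was measured in 4 libraries of rat wound skin, 2 injected and 2 uninjected. The authors deposited whole-number UMI counts for every barcode, made with Cell Ranger 7.2.0 per the file headers, whereas version 5.0.1 stands in the submitters' processing notes. No genome build is given in the sources used here. Members and lists were chosen with earlier results of these data known.

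From these counts, cells were called against the profile of empty droplets (at least 500 UMIs, false discovery rate 0.01, 1000 draws). Kept cells had at least 250 genes and at most 20% of UMIs from mitochondrial genes, and doublets were removed at 0.8% per 1000 cells. A cell entered a class when its marker score was at least 0.05 and 1.5 times the next, with at least 2 markers. UMIs were summed per class and library and tested in classes of at least 50 cells a library with edgeR 4.0.16 (quasi-likelihood, TMM, filterByExpr, Benjamini-Hochberg over all genes tested, in R 4.3.3). DESeq2 1.42.0, no low-count filter, other gates, clusters (scanpy 1.11.5, Leiden resolution 1), kept doublets, a 10% mitochondrial limit, a replicate block and leaving out each library were the alternatives. The fits were tested on simulated data. Intervals are 95% Wilson intervals. PCR duplicates are collapsed by UMIs, and intervals cover counting error only. The comparison of T and NK cells with fibroblasts and the sums without Pcna and Ckap2l were added after seeing the data. Named members are a fixed set of 25 symbols, any member that passed, and the highest and lowest change of each class. The lowest replication gene of 2 classes is not reported here.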

Additional observations from a re-analysis of the deposited data

Results flagged for a closer look

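In the test of the difference itself, the log2 injection effect was higher in T and NK cells than in fibroblasts by 3.49 for Cdk1, 3.22 for Plk1, 3.08 for Ccna2, 2.74 for Top2a, 2.40 for Tpx2, 2.03 for Cenpf and 1.56 for Mcm6, each at an edgeR adjusted p under 0.05. Over the fits that left out 1 library each, the Ccna2 difference ran between 1.79 and 3.57 and the Cdk1 difference between 2.52 and 3.70, with no change of sign. The T and NK side rests on few UMIs over all libraries: 139 for Cdk1, 55 for Tpx2, 47 for Ccna2 and 39 for Plk1.

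For the sums of members without Pcna and Ckap2l, both injected libraries lay above both uninjected ones in T and NK cells and below them in fibroblasts (mitotic sum) and neutrophils (both sums). The differences between the classes were not tested. The mitotic sum, injected over uninjected, was 2.12 in T and NK cells, 0.681 in fibroblasts and 0.572 in neutrophils. In neutrophils it rested on few UMIs, 185 and 55 in injected libraries, against 285 and 244 in uninjected libraries. The S-phase sum, injected over uninjected, was 1.63 in T and NK cells and 0.692 in neutrophils. Mcm5 supplied much of the neutrophil S-phase sum. Without Mcm5, a choice made after seeing the data, that sum was 0.427 and 0.524 UMIs per 10000 in injected libraries, against 0.531 and 0.405 in uninjected libraries, which overlapped at a ratio of 1.02, while the T and NK ratio was 1.64.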

How the results depend on the processing

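Uninjected library 1 held 84 T and NK cells and 60 macrophages, and injected library 1 and uninjected library 2 also move counts below. No alternative turned the sign of a member that passed. Medians near 0, which carry no test, changed sign in several classes, as given below. Of the single members, 319 values kept their side of the threshold, 40 lost it and 17 gained it, and of the summaries 277 stayed close and 85 did not. The cause of these differences was not tested. The share of all genes that passed under each alternative is not given here, so counts of members under them have no background beside them.

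Members called, injected over uninjected, were 0 in each class with edgeR. With no low-count filter there were 3 in T and NK cells, 6 in fibroblasts and 1 in macrophages, and DESeq2 called 1 in fibroblasts. Leaving out 1 library gave 0 to 3 in T and NK cells, 0 to 7 in fibroblasts, 0 to 1 in macrophages and 0 to 1 in neutrophils. With no filter, 17 members were lower in dendritic cells than in neutrophils (9 otherwise), and 12 differed between T and NK cells and fibroblasts (7 otherwise, 2 to 16 without 1 library). Wider basal and suprabasal gates gave 6 higher and 3 lower, and leaving out 1 library gave 10 to 20 higher and 0 to 3 lower. Over neutrophils, leaving out 1 library gave 7 to 15 higher and 3 to 5 lower in T and NK cells, 0 to 2 higher and 4 to 11 lower in dendritic cells.

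The median mitotic log2 change without 1 library ran between 0.80 and 1.42 in T and NK cells, -0.62 and -0.19 in fibroblasts, -0.15 and -0.013 in keratinocytes, -0.12 and 0.73 in macrophages, -0.10 and 0.67 in dendritic cells and -1.09 and -0.44 in neutrophils. The S-phase median ran between 0.23 and 0.70 in T and NK cells, -0.46 and -0.16 in fibroblasts, -0.12 and 0.080 in keratinocytes, -0.16 and 0.07 in macrophages, -0.20 and 0.74 in dendritic cells and -0.53 and 0.087 in neutrophils. With doublets kept the T and NK mitotic median was 0.67. The dendritic S-phase median was 0.37 with DESeq2 and -0.26 with clusters. The neutrophil mitotic median was -0.71 with DESeq2 and -0.69 with no filter.

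Shares of cells, as means of 4 libraries over all members, depended on depth and threshold. With 2 or more UMIs of 1000 the S-phase shares were 7.99% in keratinocytes, 13.5% in fibroblasts, 12.4% in T and NK cells and 31.8% in neutrophils, and the mitotic shares 7.18%, 13.6%, 6.30% and 13.3% in that order. For S-phase members they were, with 1 or more UMIs, 31.0% in keratinocytes, 39.1% in fibroblasts, 37.2% in T and NK cells and 61.3% in neutrophils, and with 3 or more UMIs 2.20%, 4.50%, 4.26% and 15.7% in that order. Thinning to 2000 UMIs gave 19.9%, 30.4%, 25.5% and 57.4%, no thinning 70.7%, 82.8%, 45.3% and 41.5%, and leaving out Pcna and Ckap2l 2.88%, 7.30%, 5.26% and 0.805%. For mitotic members, 1 or more UMIs gave 20.1%, 30.7%, 17.6% and 31.7%, 3 or more 3.04%, 6.91%, 3.91% and 6.14%, and thinning to 2000 UMIs 14.3%, 26.4%, 11.3% and 25.8%. No thinning gave 43.3% in keratinocytes, 62.3% in fibroblasts and 21.5% in T and NK cells, and leaving out Ckap2l gave 0.280% in neutrophils.

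Whether the replicate numbers pair the libraries is not known. Deviations of same-numbered libraries from their group means, gene by gene, correlated at -0.05 in fibroblasts, -0.04 in macrophages and -0.09 in keratinocytes. The values were -0.08 in T and NK cells, -0.17 in dendritic cells and -0.14 in neutrophils. With 2 libraries a group, such values cannot show whether same-numbered libraries shared a batch. With the replicate block 0 members were called in each class. With the numbers crossed, 0 were called in dendritic cells and neutrophils, and the neutrophil S-phase median was 0.055.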

Other observations

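Gates with under 50 cells in some libraries entered no test. The skeletal muscle gate held 51 and 7 cells in injected libraries, against 24 and 24 in uninjected libraries. Its mitotic members, without Ckap2l, summed to 24.1 and 20.5 UMIs per 10000 in injected libraries, against 9.55 and 17.9 in uninjected libraries, so each injected library stood above each uninjected one. Mural cells, the smooth muscle cells and pericytes of vessels, numbered 55 and 7 in injected libraries, against 63 and 7 in uninjected libraries. Their mitotic sum was 13.5 and 12.0 UMIs per 10000 in injected libraries, against 6.22 and 8.01 in uninjected libraries, again without overlap. Endothelial cells, which line vessels, gave 8.65 and 6.31 UMIs per 10000 in injected libraries, against 3.95 and 10.3 in uninjected libraries, which overlapped. These gates rest on few cells and were not tested.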
